A study of Homo sapiens with 6 samples.

Results

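The genes described here are 6 genes of iron storage and transport: FTH1 and FTL, which encode the heavy and light chains of ferritin, NCOA4, SLC40A1, TFRC and SLC11A2. For each gene, every listed NRF2 peak was taken whose summit (its highest point) lay inside the gene or within 50 kb of either end, on RefSeq gene bounds of GRCh38.p14. This gave 13 of the 28132 listed peaks, which joined into 6 regions, and the 6 genes were compared with all 19974 protein-coding genes. The libraries were made by chromatin immunoprecipitation followed by sequencing (ChIP-seq), with an anti-NRF2 antibody, from HMC3 cells, a human microglial line in established use. The CDDO-Im group held 2 libraries from cells given 30 nM CDDO-Im, a synthetic triterpenoid that activates NRF2, for 4 h, and the vehicle group held 2 libraries. The groups are those of the sample titles, because the treatment text is the same for every sample. The labels do not tell whether the libraries of a group are from separate cultures, and their spread may be technical. A peak list holds no expression values, so the microglial identity of the cells could not be checked here.

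Iron enters most cells bound to transferrin, which the transferrin receptor encoded by TFRC carries into endosomes, and the transporter encoded by SLC11A2 (DMT1) moves it from there into the cytosol. Ferritin stores it in a protein shell in which the heavy chain oxidizes ferrous iron and the light chain helps the mineral core to form. NCOA4 is the receptor that delivers ferritin to lysosomes for iron release, and SLC40A1 encodes ferroportin, the exporter of iron from cells. NRF2 is kept low by KEAP1-dependent degradation and is freed by electrophiles. It then binds antioxidant response elements together with small MAF proteins, and an enhancer with such elements is known upstream of the ferritin heavy chain gene.

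The deposited lists held 4024 and 12433 peaks for CDDO-Im 1 and 2, and 4227 and 7448 peaks for vehicle 1 and 2. Peaks per megabase were very uneven, and 77 megabases with more than 20 joined regions each (dense megabases below) were set apart for rankings. None of the 6 regions lay in one of them. The number of tags at a summit was recovered from its fold enrichment and −log10 p as deposited. The lowest background of each library, which served as its measure of depth, was 0.332 and 0.367 tags for CDDO-Im 1 and 2 and 0.316 and 0.315 tags for vehicle 1 and 2. Library totals are not in the lists, so the sequencing depth itself is unknown. At HMOX1, an established NRF2 target, a region of all 4 libraries held 114 and 188 tags with CDDO-Im and 36 and 46 tags under vehicle.

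The promoter windows were checked for overlap with the peaks. RefSeq promoter windows on GRCh38.p14 were matched for 5 of the 6 genes, with 9 windows in all, and no library listed a peak overlapping the 250 bases before any of these 9 starts. FTH1 was not matched. The share of all promoter windows with a peak was not counted. Of all protein-coding genes, 4.61% had a region listed in both CDDO-Im libraries inside the gene or within 1 kb. The absence at these 9 windows is therefore a description and not a trait of these genes. The windows of the 3 genes listed with CDDO-Im alone are given from 5′ to 3′, as the start-proximal sequence at which no peak was listed. Capitals mark TGAC on either strand, the first letters of the core antioxidant response element TGACNNNGC.
FTL (chr19:48965059-48965308, plus strand): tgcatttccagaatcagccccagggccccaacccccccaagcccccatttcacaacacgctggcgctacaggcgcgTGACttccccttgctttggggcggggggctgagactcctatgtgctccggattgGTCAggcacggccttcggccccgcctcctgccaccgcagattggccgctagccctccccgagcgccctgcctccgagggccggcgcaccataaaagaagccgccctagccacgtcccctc
TFRC (chr3:196082091-196082340, minus strand): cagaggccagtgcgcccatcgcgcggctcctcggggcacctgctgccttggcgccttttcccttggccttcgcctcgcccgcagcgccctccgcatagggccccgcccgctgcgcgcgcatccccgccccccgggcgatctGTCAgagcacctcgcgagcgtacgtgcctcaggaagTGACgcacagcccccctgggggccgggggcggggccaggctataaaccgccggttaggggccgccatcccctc
SLC40A1 (chr2:189580787-189581036, minus strand): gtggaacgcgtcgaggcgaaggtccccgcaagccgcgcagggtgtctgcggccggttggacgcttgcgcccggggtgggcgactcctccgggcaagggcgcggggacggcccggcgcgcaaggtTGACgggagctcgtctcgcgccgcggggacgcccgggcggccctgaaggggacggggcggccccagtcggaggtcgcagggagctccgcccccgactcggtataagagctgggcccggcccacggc
None of the 9 windows held TGACNNNGC on either strand, which 10.9% of all 35116 promoter windows of this length held. None held TGACTCA, the AP-1 element, which 4.20% of all windows held. FTL and TFRC each had 2 matches to TGAC and SLC40A1 had 1, and 75.8% of all windows had at least 1; TGAC is part of both longer motifs. These letters describe the promoter windows only, and the sequence under the NRF2 peaks was not analysed here.

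With CDDO-Im, NRF2 regions were listed in both libraries (shared CDDO-Im regions) at 4 of the 6 genes, FTH1, FTL, TFRC and SLC40A1. Under vehicle, a region was listed in both libraries (a shared vehicle region) at 1 gene, FTH1. Among all protein-coding genes, 11.6% had a shared CDDO-Im region and 1.81% a shared vehicle region inside or within 50 kb. A region of all 4 libraries was listed at 1 of the 6 genes, FTH1, and at 1.78% of all protein-coding genes. FTL, TFRC and SLC40A1 had CDDO-Im-only regions, meaning shared CDDO-Im regions with no vehicle peak, which 7.56% of all protein-coding genes had. A shared vehicle region with no CDDO-Im peak was listed at 0 of the 6 genes and at 0.0451% of all protein-coding genes. NCOA4 had a peak in CDDO-Im 2 alone and SLC11A2 had none in any library. In total, 5 of 6 genes had a peak in at least 1 library, against 31.5% of all protein-coding genes. The genes were chosen as iron genes with earlier results of these data known, so the counts are a description and no p is given over the set. The 4 genes became 2, FTH1 and FTL, when the distance was 10 kb, against 5.79% of all protein-coding genes. They were also 2, FTH1 and SLC40A1, when only peaks reaching a −log10 q of 5 were kept, against 10.0% of all protein-coding genes. These 2 genes were likewise those left at a −log10 q of 10, against 6.63%.

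**Figure D1:**
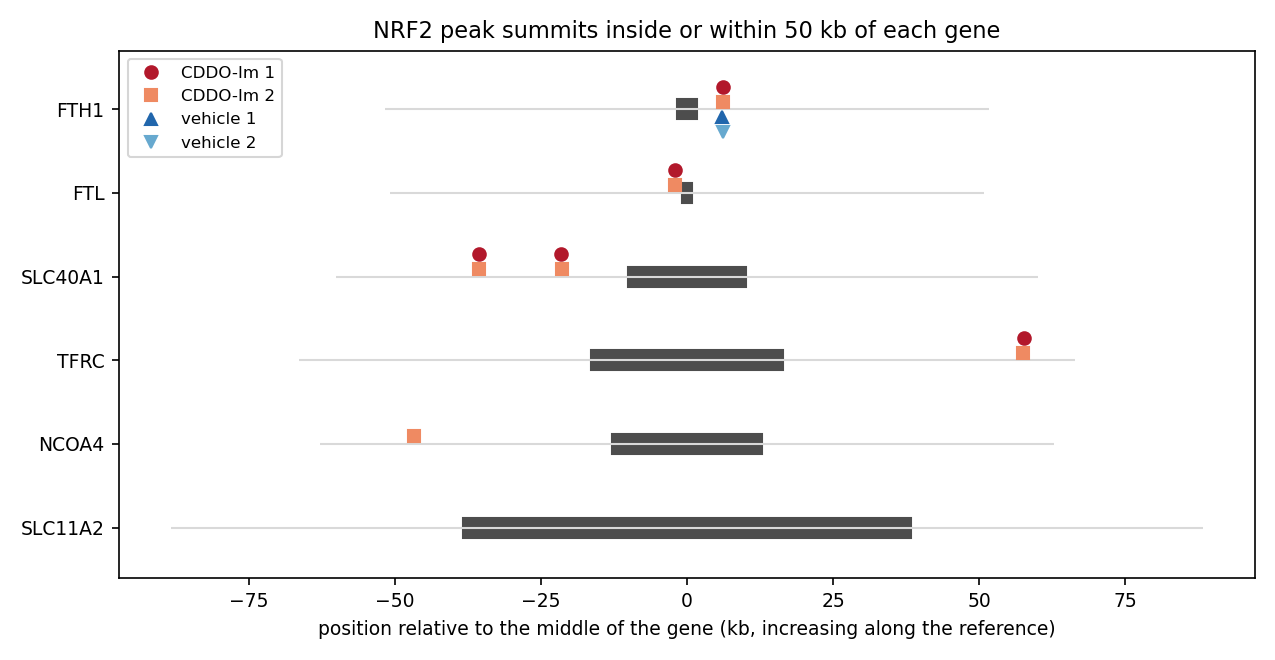
Positions of NRF2 peak summits around each of the 6 genes, in kb from the middle of the gene along the reference. Dark bars are the genes, grey lines the windows searched, and each marker is 1 summit of 1 library; vehicle markers appear at FTH1 alone, all summits lie outside the genes, and SLC11A2 has none.

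Peak numbers near the 6 genes were 5 and 6 in CDDO-Im 1 and 2 and 1 and 1 in vehicle 1 and 2. The groups did not overlap, and the difference between group means was 2.45 on the log2 scale, a 5.48-fold ratio. Peaks near any protein-coding gene numbered 2169 and 3257 with CDDO-Im and 794 and 870 under vehicle, a difference of 1.68 on the log2 scale. Within 10 kb of the 6 genes there were 2 and 2 peaks with CDDO-Im and 1 and 1 under vehicle, a difference of 1.00 on the log2 scale. Of the peaks within 50 kb, those at a −log10 q of at least 5 numbered 3 and 4 with CDDO-Im and 1 and 1 under vehicle. Their difference was 1.79 on the log2 scale. Peaks within 10 kb of all protein-coding genes were not counted, and the 1.68 above is for 50 kb with every listed peak.

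**Figure D2:**
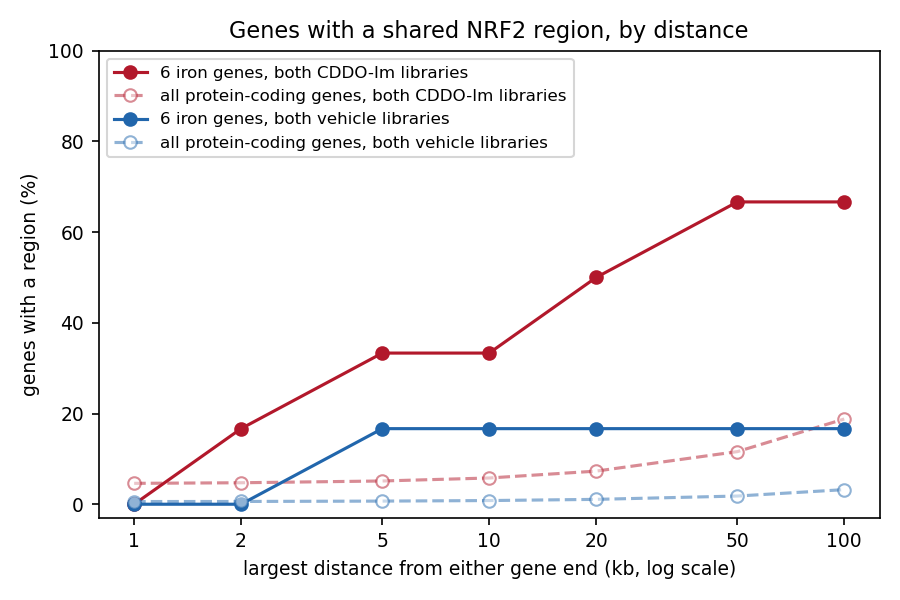
Percentage of genes with a region listed in both libraries of a group (y axis) against the largest distance allowed from either gene end (x axis, kb, log scale), for the 6 iron genes (solid lines) and all protein-coding genes (dashed lines). At 50 kb the 6 genes stand at 4 of 6 for CDDO-Im and 1 of 6 for vehicle, against 11.6% and 1.81% of all genes.

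FTH1, the ferritin heavy chain, had the strongest NRF2 region of the set and the only one listed in all 4 libraries. The region (chr11:61971835-61972288, hg38) lay outside the gene (61964285 to 61967634), with summits 4429 and 4415 bp beyond its higher-coordinate end in the CDDO-Im libraries and 4361 and 4437 bp in the vehicle libraries. It held 49 and 104 tags in CDDO-Im 1 and 2 and 12 and 17 tags in vehicle 1 and 2. Divided by each library's background these were 148 and 283 with CDDO-Im and 38.0 and 54.0 under vehicle, or 215 ± 95.7 and 46.0 ± 11.3 (SD, n = 2 each). The ratio of CDDO-Im 2 to CDDO-Im 1 was 1.92, above that of 85.8% of the 2116 shared CDDO-Im regions outside dense megabases. The median ratio of those regions was 1.30. The groups did not overlap, with CDDO-Im above vehicle, as at 87.0% of the 230 four-library regions, those that every library listed outside dense megabases. The difference between group means was 2.17 on the log2 scale, or 4.51-fold (exact permutation test, two-sided, p = 0.333, n = 2 and 2, the smallest p this design allows). The ratio of summed tags was 4.76, with an exact 95% interval of 3.18 to 7.34 that covers counting error only.

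By the ratio of CDDO-Im to vehicle, the FTH1 region ranked 26 of the 230 four-library regions, where the median ratio was 3.21 and the quartiles were 2.35 and 3.89. Fold enrichment here and below is the authors' own value per peak, ranked within its own list. At FTH1 it was 33.0 and 41.6 in CDDO-Im 1 and 2, rank 40 of 3249 and rank 82 of 4795 peaks outside dense megabases. In vehicle 1 and 2 it was 8.33 and 9.42, rank 100 of 1216 and rank 140 of 1276. The −log10 q was 73.4 and 144 with CDDO-Im and 8.57 and 12.1 under vehicle. Its peaks were 407 and 454 bp wide with CDDO-Im and 236 and 271 bp wide under vehicle.

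The nearest annotated gene to the FTH1 region was LOC399900, a lncRNA that overlaps the higher-coordinate end of FTH1, at 3170 bp. The nearest protein-coding gene was FTH1, followed by BEST1, which encodes the chloride channel bestrophin 1 and overlaps the other end of FTH1, at 6534 bp. Regions cannot be assigned to one of these genes from the lists. The 5 four-library regions whose tags over background were most like those at FTH1 lay inside AQP11, TRIM16, PATJ, NPR3 and ZFHX3. Their root mean square differences from FTH1 over the 4 libraries were 0.15, 0.16, 0.17, 0.21 and 0.23 on the log2 scale. The AQP11 region (chr11:77602304-77602764) held 60 and 107 tags with CDDO-Im and 12 and 18 tags under vehicle. The TRIM16 region (chr17:15642791-15643262) held 53 and 93 tags with CDDO-Im and 10 and 17 tags under vehicle. In the vehicle libraries both lay within 2 tags of the FTH1 region. PATJ encodes a scaffold protein of cell polarity, NPR3 the clearance receptor of natriuretic peptides, ZFHX3 a homeobox transcription factor and AQP11 an aquaporin.

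**Figure D3:**
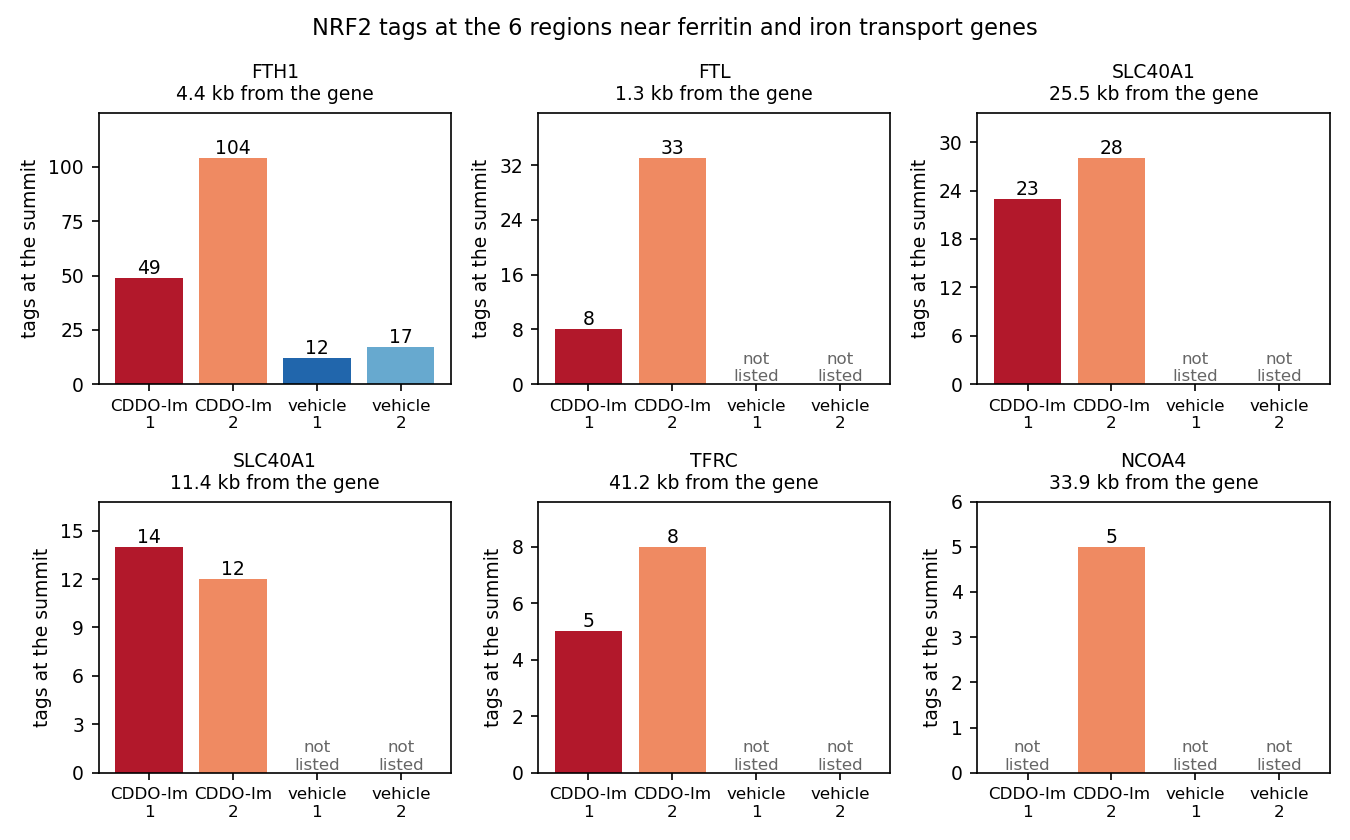
Tags at the summit (y axis, scaled separately in each panel from 0) in CDDO-Im 1, CDDO-Im 2, vehicle 1 and vehicle 2 for the 6 regions, each titled with its gene and the smallest summit distance. FTH1 has bars in all 4 libraries, with 49 and 104 tags against 12 and 17, and the other 5 regions have none in the vehicle libraries, which did not list a peak there.

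FTL, the ferritin light chain, had a region close to its start that was listed with CDDO-Im alone. The region (chr19:48963771-48964148) lay between BAX and FTL, with summits 1347 and 1332 bp upstream of the FTL start in CDDO-Im 1 and 2. It held 8 and 33 tags in CDDO-Im 1 and 2, or 24.1 and 89.8 over background, and no peak in either vehicle library. The CDDO-Im libraries were far apart here. Their ratio, CDDO-Im 2 over CDDO-Im 1, was 3.72, above that of 99.8% of the 2116 shared CDDO-Im regions outside dense megabases, where the median was 1.30. The fold enrichment was 5.09 in CDDO-Im 1, rank 2679 of 3249, and 22.5 in CDDO-Im 2, rank 402 of 4795. The local background at the summit of CDDO-Im 1 was 0.767 tags, against 0.508 tags at that of CDDO-Im 2. With a −log10 q of 3.22 in CDDO-Im 1, the region was one of CDDO-Im 2 alone at a −log10 q of at least 5. BAX, which encodes a pro-apoptotic protein, lay 2179 bp from the summit, and GYS1, muscle glycogen synthase, lay 4153 bp from it.

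**Figure D4:**
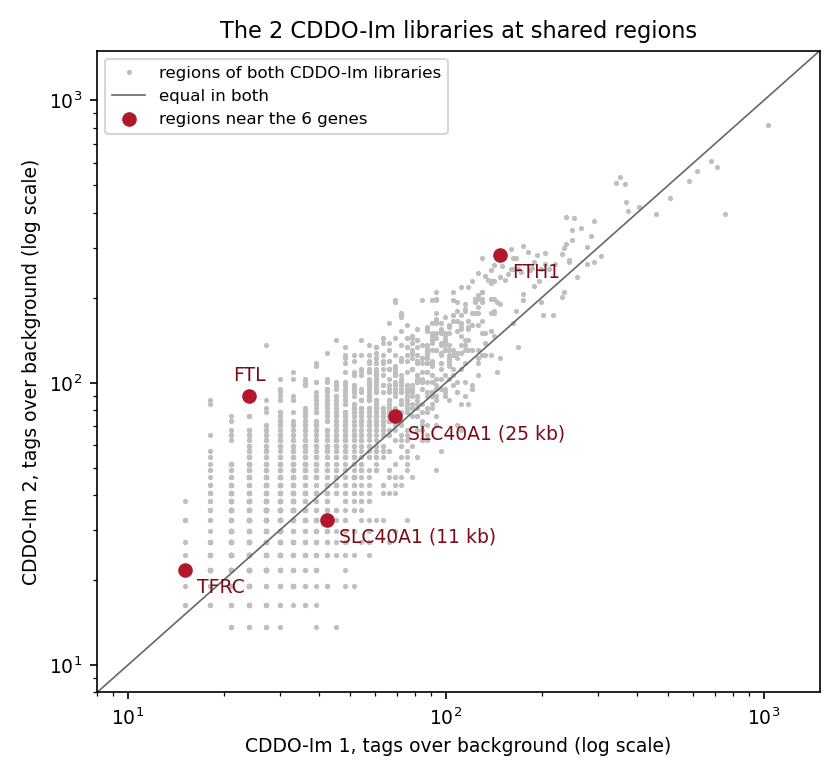
Tags over background in CDDO-Im 1 (x axis) and CDDO-Im 2 (y axis), both on log scales, at the 2116 regions listed in both CDDO-Im libraries outside dense megabases (grey) and the 5 such regions near the iron genes (red). FTL lies far above the line of equal values, FTH1 above it, and the SLC40A1 region at 11 kb below it.

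SLC40A1, the iron exporter ferroportin, was the only one of the 6 genes with more than 1 shared CDDO-Im region, as 1.10% of all protein-coding genes had. Both regions lay beyond the lower-coordinate end of the gene (189560590 to 189580786), which is the side away from its start. The stronger one (chr2:189534922-189535277) had summits 25492 and 25514 bp from the gene and held 23 and 28 tags in CDDO-Im 1 and 2. These were 69.3 and 76.2 over background, so the CDDO-Im libraries nearly matched, with a ratio of 1.10. The fold enrichment was 16.7 in CDDO-Im 1, rank 335 of 3249, and 19.4 in CDDO-Im 2, rank 546 of 4795. Of the 4 CDDO-Im-only regions near the 6 genes, only this one was listed in both CDDO-Im libraries at a −log10 q of at least 10.

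The other SLC40A1 region (chr2:189549034-189549361) had summits 11414 and 11356 bp from the gene, and held 14 and 12 tags in CDDO-Im 1 and 2. Over background these were 42.2 and 32.7, so here CDDO-Im 1 was the higher library, and 8.70% of shared CDDO-Im regions had a lower ratio of CDDO-Im 2 to CDDO-Im 1. The fold enrichment was 9.52 in CDDO-Im 1, rank 1040 of 3249, and 5.15 in CDDO-Im 2, rank 3888 of 4795, where the local background was 1.52 tags, against 0.575 in CDDO-Im 1. Neither vehicle library listed a peak near SLC40A1, and their nearest summits were 212854 and 2369895 bp away. No other protein-coding gene lay within 50 kb of either region. A further CDDO-Im 2 peak with 9 tags lay 61270 bp from the gene, the first outside the 50 kb limit for any of the 6 genes.

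TFRC, the transferrin receptor, had a weak region with CDDO-Im far upstream of its start. The region (chr3:196123163-196123438) held 5 and 8 tags in CDDO-Im 1 and 2, or 15.1 and 21.8 over background. Its summits, 41311 and 41158 bp from the gene (196049284 to 196082090), were the farthest inside the 50 kb limit. They lay 153 bp apart, farther than in 99.5% of shared CDDO-Im regions, where the median was 18 bp. The fold enrichment was 4.51 in CDDO-Im 1, rank 2866 of 3249, and 6.58 in CDDO-Im 2, rank 2859 of 4795. The lncRNA gene LINC00885 lay nearer to it, at 19388 bp.

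NCOA4, the receptor for ferritin breakdown, had a single peak of 5 tags (chr10:45971003-45971250), in CDDO-Im 2 alone and 33917 bp beyond the lower-coordinate end of the gene (46005088 to 46030623). Its fold enrichment of 3.98 ranked 4667 of 4795. The summit lay inside PARGP1, a transcribed pseudogene, and 1318 bp from TIMM23, a subunit of the mitochondrial import machinery. Sequence of pseudogenes can be near-identical to other loci, and whether these tags belong to this site alone was not tested. SLC11A2 (chr12:50952263-51028886) had no peak within 50 kb. The nearest summits were 744752 and 336023 bp away in CDDO-Im 1 and 2 and 1178924 and 275390 bp away in vehicle 1 and 2.

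**Figure D5:**
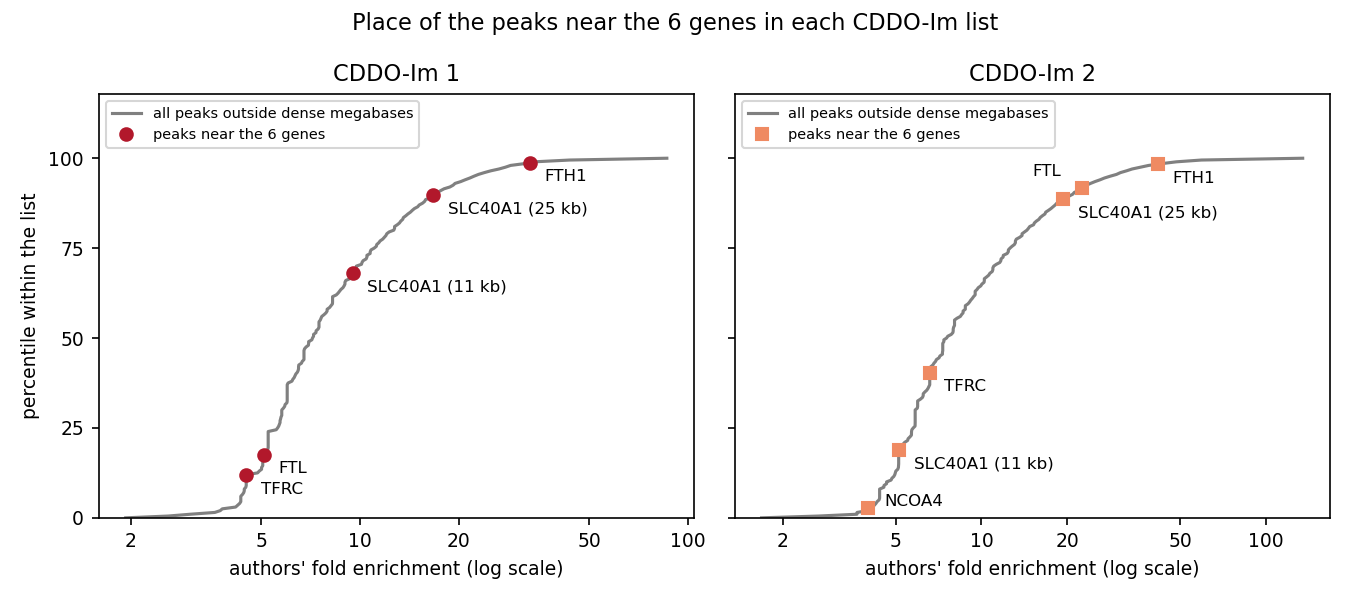
Percentile within the list (y axis) against the authors' fold enrichment (x axis, log scale) for all peaks outside dense megabases (grey line) and the peaks near the 6 genes (markers), in CDDO-Im 1 (left) and CDDO-Im 2 (right). FTH1 is near the top of both lists, FTL is high in CDDO-Im 2 and low in CDDO-Im 1, and TFRC and NCOA4 sit in the lower part.

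A site missing from a vehicle list may still hold some tags, and the number that would have been listed differed between sites. The lowest −log10 p listed was 4.04 in vehicle 1 and 4.10 in vehicle 2. At the genome-wide background, 4 tags reached this level in both vehicle libraries, if the signal was as wide as their shortest peaks, 201 and 169 bp. The higher local background of the CDDO-Im libraries was then carried over to the vehicle libraries, which can set it too high. At FTH1, the only region with vehicle peaks, it was 0.561 and 0.911 tags in vehicle 1 and 2. In CDDO-Im 1 and 2 it was 0.513 and 1.52 tags there. By this estimate 6 tags were needed at FTL, against 8 and 33 tags observed with CDDO-Im. A vehicle signal a few tags below that of CDDO-Im 1 could therefore have gone unlisted at FTL. At the stronger SLC40A1 region 4 tags were needed, against 23 and 28 observed with CDDO-Im. At the other SLC40A1 region 7 were needed, against 14 and 12 with CDDO-Im. At TFRC 4 were needed, against 5 and 8 with CDDO-Im, so the same holds for both CDDO-Im libraries there. At NCOA4 4 and 5 tags were needed in vehicle 1 and 2, against 5 in CDDO-Im 2. The lists thus could not settle whether the groups differed at TFRC or NCOA4, and at FTL the listing of CDDO-Im 1 alone could not show a difference. At the other SLC40A1 region, a vehicle signal below 7 tags could also have gone unlisted. The lack of vehicle peaks there does not give the size of a difference.

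Other genes of iron handling had NRF2 peaks in shares near those of all genes. Of 34 such genes, 10 (29.4%) had a peak in any library, 3 (8.82%) a shared CDDO-Im region and 0 a shared vehicle region, against the 31.5%, 11.6% and 1.81% of all protein-coding genes. The 3 genes were BMP6, HEPH and SLC25A37. They became 6 without CDDO-Im 1 and 5 without CDDO-Im 2, with 1 list then standing for CDDO-Im, and 0 at a −log10 q of at least 10. BMP6, a signal that induces the iron hormone hepcidin, had 2 shared CDDO-Im regions inside the gene, with 6 and 16 tags (chr6:7769854-7770135) and 12 and 12 tags (chr6:7847488-7847783) in CDDO-Im 1 and 2, and a further region inside it with 15 tags in CDDO-Im 2 alone. HEPH, the ferroxidase hephaestin that works with ferroportin, had such a region inside the gene (chrX:66200253-66200578) with 16 and 7 tags, and a peak 12885 bp outside it with 7 tags in CDDO-Im 2 alone. SLC25A37, the mitochondrial iron importer mitoferrin 1, had one 10009 bp outside the gene with 9 and 12 tags. None of the 3 had a vehicle peak in these regions.

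By role, the 5 genes of iron regulatory proteins and their control had 2 members with a peak, where 31.5% of all protein-coding genes had one; counts this small are given as a description. IREB2, which encodes an iron regulatory protein that binds ferritin and transferrin receptor mRNA, had 7 tags in CDDO-Im 1. PCBP2, an iron chaperone, had 8 tags in CDDO-Im 2. The 6 genes of the transferrin cycle had 1 member with a peak, TFR2, another transferrin receptor, with 5 tags in vehicle 1. Of the 5 other importers, the metal transporter SLC39A8 had 11 tags in CDDO-Im 2 and SLC39A14 had 35 tags in vehicle 2. Of 9 genes of mitochondrial iron and iron-sulfur clusters, ISCU, the scaffold on which the clusters are built, had 5 tags in CDDO-Im 1, and CISD2, an iron-sulfur protein, had 8 tags in CDDO-Im 2, besides SLC25A37. The 3 genes of ferritin turnover and release, HERC2, VAMP8 and PROM2, had none. The peaks of IREB2, PCBP2, TFR2, SLC39A8, ISCU and CISD2 lay 12146 to 28615 bp outside the genes, and that of SLC39A14 lay inside.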

How the data were processed

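NRF2 ChIP-seq peaks of 2 CDDO-Im and 2 vehicle libraries were used; the 2 input samples were left out. The submitters' processing notes name MACS2 2.2.7.1, BWA 0.7.17, bcl2fastq 2.15.0 and the builds hg38 and GRCm38; the positions are read as hg38. The control, threshold and duplicate filter are not stated in those notes or the labels. Peaks were listed per library, by their names. Each deposited peak carries a fold enrichment (a ratio), a −log10 p and a −log10 q at each summit, and a score, 10 times the −log10 q as a whole number in the deposited files.

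Tags were recovered from the deposited fold, taken as tags plus 1 over background plus 1, and the deposited −log10 p, taken as a Poisson tail beyond the tags. In every library 100% of peaks matched a whole number of tags (tolerance 0.001 plus 0.0002 of the value), 97.7% to 99.4% of them just 1 number. They were divided by the library's lowest background, which also depends on the fragment length. Overlapping peaks (1 bp or more) of chromosomes 1 to 22 and X were joined; a library held a region where it listed a peak. The site estimate of tags a vehicle library needed took the higher local background of the CDDO-Im libraries, relative to their lowest, times that of the vehicle library.

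Groups were compared by exact permutation over libraries, two-sided; the p for peak numbers pooled over the 6 genes is left out, because the genes were chosen with results known. Other distances, −log10 q limits, overlaps, scalings and leaving out each library were tried. Dense megabases were defined after the data were seen. The 6 genes, the list of 34 iron genes and the rule for named genes (the 6 genes with every peak, listed genes with a shared CDDO-Im region, neighbours, and the 5 regions most like the strongest) were chosen with earlier results of these data known; other listed genes were named after their values were seen. Tag recovery, joining and gene windows were tested on simulated data. Python 3.11.15, numpy 2.4.6, pandas 2.3.3 and scipy 1.17.1 were used.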

Additional observations from a re-analysis of the deposited data

How the results depend on the processing

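Within 10 kb in place of 50 kb, 2 genes had a shared CDDO-Im region and there was 1 CDDO-Im-only region. At a −log10 q of at least 5 these were again 2 genes and 1 region. At a −log10 q of at least 10 they were 2 genes and 1 region, with 0 genes with a shared vehicle region, 0 regions of all 4 libraries and 0 other iron genes; vehicle 1 then listed 0 peaks near the 6 genes, so no log2 difference in peak numbers could be had. Leaving out a library gave 3 to 6 other iron genes. The remaining 56 of 67 alternative values kept their direction, with counts within 1.5 times. Some of them could not have changed, so this tally does not measure stability. Leaving out a library of 1 group cannot alter a count taken from the other group alone. None of the 6 regions lay in a dense megabase, and the replicate block leaves a mean difference as it was. The log2 difference in peak numbers counted as kept although it fell from 2.45 to 1.00 within 10 kb. The log2 difference at FTH1 ranged from 1.70 to 2.64 without 1 library and was 2.07 with the authors' fold enrichment. With the replicate numbers as a block it was 2.17, with an exact sign-flip p of 0.5, the smallest that 2 pairs allow, and the difference in peak numbers near the 6 genes was 2.45. The labels do not say that the numbers pair the libraries, and the differences between replicates 1 and 2 in the CDDO-Im and vehicle groups had a correlation of -0.04 over 230 regions. Tags in single digits, as at TFRC, NCOA4 and, in CDDO-Im 1, FTL, limit what these lists can show.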

Other observations

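SLC39A14, which encodes a transporter of iron and zinc, had a region inside the gene in vehicle 2 alone, a site picked out after its value was seen. It held 35 tags at a background of 0.455, and its fold enrichment of 24.7 ranked 4 of the 1276 vehicle 2 peaks outside dense megabases. Neither CDDO-Im library and not vehicle 1 listed a peak there. Besides it, the vehicle libraries listed peaks near 2 of the other iron genes, of 5 tags each. They lay 28615 bp from TFR2 in vehicle 1 and 45351 bp from BMP6 in vehicle 2.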
